A study of Mus musculus with 6 samples.

Results

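PRC1.6 is a non-canonical Polycomb repressive complex 1 that keeps germline genes silent. Its RNA was followed here through 10 genes chosen by symbol: Mga, Max, E2f6, Tfdp1, L3mbtl2, Cbx3, Pcgf6, Rnf2, Ring1 and Yaf2. All 10 were found among the 54532 genes of the deposited table, and all 10 were among the 17658 genes tested. The measured material was polyadenylated RNA of whole mouse testis on postnatal day 9, in 3 libraries from wild-type mice and 3 from mice with a conditional knockout of Ppp6r3, labelled Ppp6r3 cKO. The PPP6R3 protein directs protein phosphatase 6 to its substrates. The Cre driver is not named in the labels, and hence neither are the cells that lost the gene, the deleted exons or the strain. They do not say whether the 3 samples of a group are separate animals, so the p-values rest on the spread among these libraries alone, and that spread may be technical. In whole tissue, fewer cells of a type and less RNA per cell cannot be told apart.

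PRC1.6 is assembled around PCGF6 and a RING ligase that places ubiquitin on histone H2A. It is brought to promoters by 2 DNA-binding pairs, MGA with MAX at E-boxes and E2F6 with a DP protein at E2F sites, and it holds the readers L3MBTL2 and CBX3 (HP1 gamma) and the adaptor YAF2. In embryonic stem cells and somatic cells, losing these proteins lets meiotic and other germline genes be transcribed, and in germ cells the release of this repression is tied to the start of meiosis. Gene-level values do not separate splice forms, which matters for Mga, with 15 annotated transcripts.

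The 6 libraries held 15970908 to 16606867 fragments, as read from the steps of the deposited FPKM values (fragments scaled by exon length and library size). The targeted gene Ppp6r3 had a mean of 21.0 ± 0.257 FPKM over the wild-type libraries, against 15.4 ± 0.458 FPKM over the Ppp6r3 cKO libraries (SD, n = 3 per group). That is a log2 fold change of -0.45 (adjusted p = 0.000695 in limma), without overlap of the groups. A residual level is measured in whole tissue. One library stood apart by base composition: in Ppp6r3 cKO replicate 1 the median deviation from the gene mean ran from -0.112 (log2) in the tenth of genes with the lowest GC content to 0.126 in the tenth with the highest.

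The members were all expressed in the upper part of the range of tested genes (percentiles 65.1 to 93.2 by mean FPKM). FPKM is a level per length, so genes can be set side by side as far as the exon lengths used hold. The Pcgf6 values fit a length of 2098 bases, against 5027 in GENCODE M21. Its place in the order below, and the fold from highest to lowest, therefore depend on the annotation used. In wild type, Tfdp1 was the highest at 44.3 FPKM, followed by Rnf2 at 25.9, Yaf2 at 24.2, Max at 14.7, Cbx3 at 13.4, Mga at 11.7, Pcgf6 at 11.3, E2f6 at 11.0, Ring1 at 10.4 and L3mbtl2 at 9.55. The highest stood 4.64-fold above the lowest. Rnf2 and Yaf2 overlapped between their libraries, as did each neighbouring pair from Mga down to L3mbtl2, so the order within those stretches is not resolved. In Ppp6r3 cKO, Yaf2 (27.2 FPKM) stood above Rnf2 (24.7), with no overlap, and E2f6 (12.7) stood above Mga (11.6), again with no overlap.

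**Figure D1:**
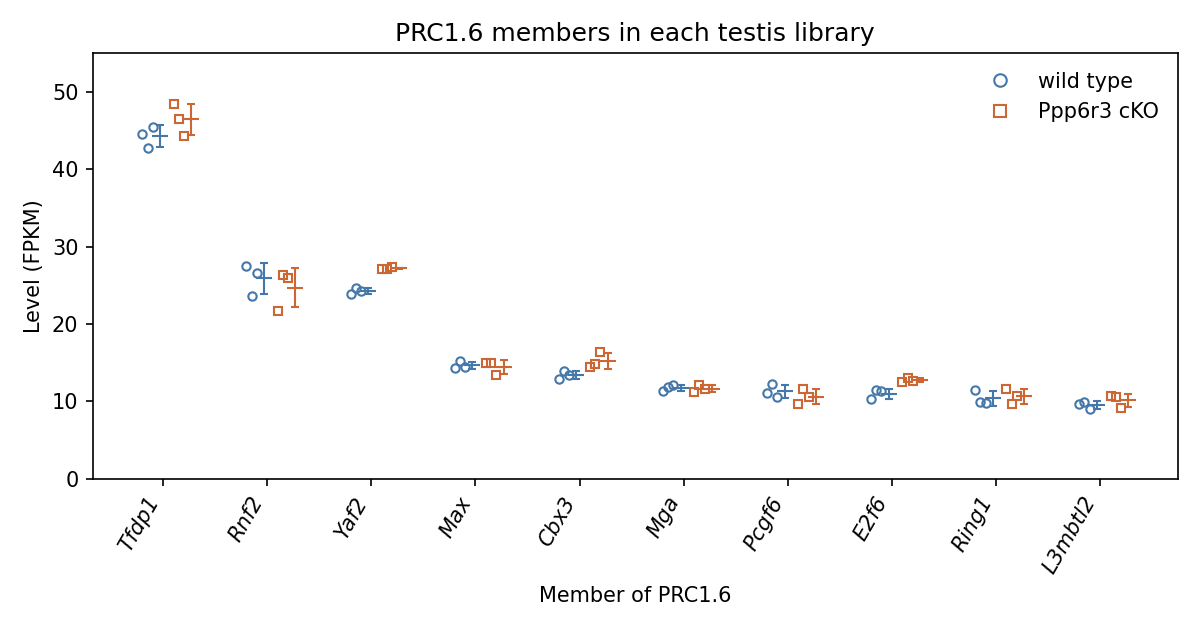
Level (FPKM) of the 10 PRC1.6 members in each library, ordered by wild-type mean; circles are the 3 wild-type libraries, squares the 3 Ppp6r3 cKO libraries, and the bar beside them the mean ± SD. The groups lie apart for Yaf2, Cbx3 and E2f6 and overlap for the other 7.

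None of the members fell in Ppp6r3 cKO testis and 2 rose, E2f6 and Yaf2, to 1.15 and 1.12 times the wild-type mean. The other 8 did not pass. No member had an unadjusted p under 0.05 in the downward direction, and voom on the recovered fragments called none lower. Of all tested genes, 15.5% passed in limma at an adjusted p under 0.05, 7.67% higher and 7.86% lower in Ppp6r3 cKO, against 2 of 10 members. A share that near to the background is not a result about the complex. The groups did not overlap for 3 members, E2f6, Yaf2 and Cbx3, which is 30.0% beside 37.0% of all tested genes. The median log2 fold change of the members was 0.05, against 0.00270 for all tested genes. For the 8 that did not pass, the 95% confidence intervals lay between 0.829-fold and 1.24-fold of wild type, so a change beyond those bounds was outside every interval.

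**Figure D2:**
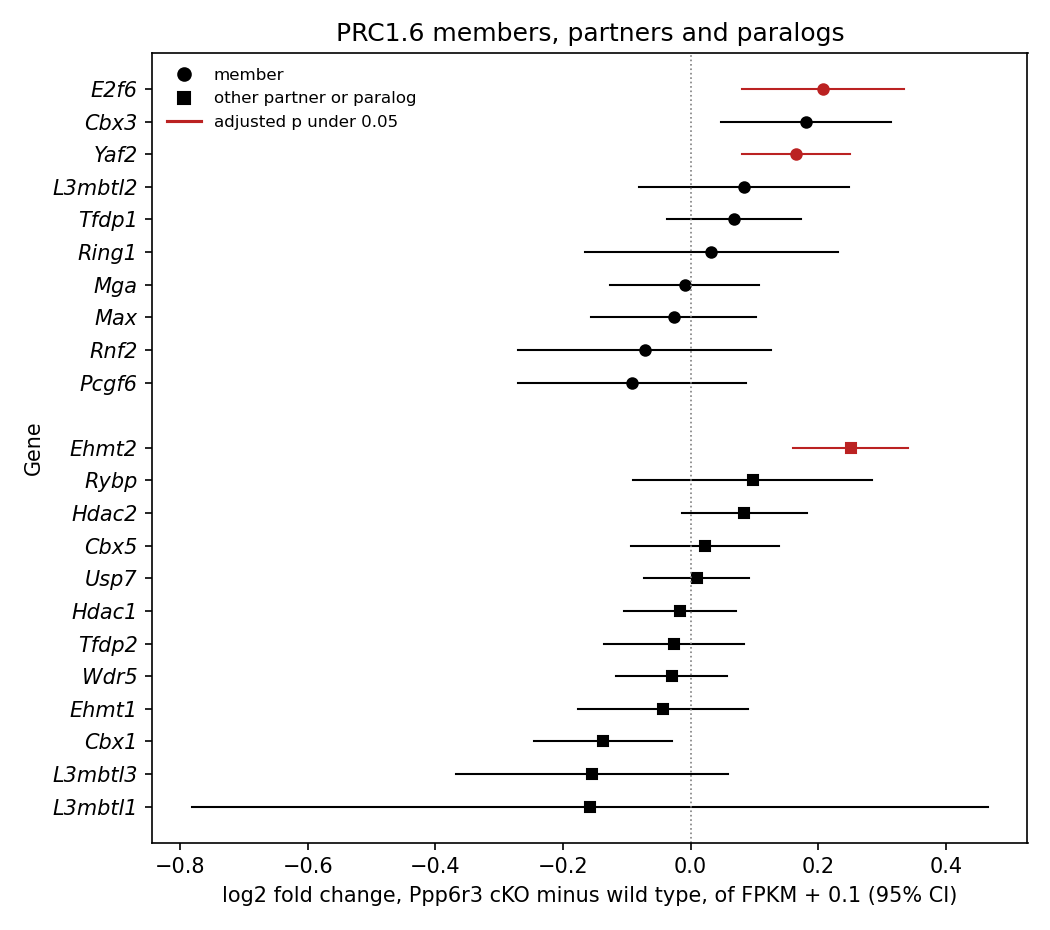
Log2 fold change (Ppp6r3 cKO minus wild type, of FPKM + 0.1) with its 95% confidence interval for the 10 members (circles, upper block) and 12 other partners or paralogs (squares, lower block), 3 libraries a group; red marks an adjusted p under 0.05. E2f6, Yaf2 and Ehmt2 are red, and the Mga and Max intervals both cover 0.

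Mga encodes the large scaffold that binds DNA with MAX and also carries a T-box domain (chromosome 2, 119897228 to 119969581, plus strand of mm10). It read 11.3, 11.8 and 12.1 FPKM in wild-type replicates 1 to 3 and 11.2, 12.1 and 11.6 FPKM in Ppp6r3 cKO. The ranges were nearly the same, and the log2 fold change was -0.01 (95% CI -0.13 to 0.11, limma adjusted p = 0.923). Max encodes the shared partner of MGA, the MYC proteins and the MXD proteins (chromosome 12, 76937269 to 76962201, minus strand). It read 14.3, 15.2 and 14.5 FPKM in wild type and 14.9, 14.97 and 13.4 FPKM in Ppp6r3 cKO. Its groups overlapped as well, with a log2 fold change of -0.03 (95% CI -0.16 to 0.10, limma adjusted p = 0.792). The ratio of Max to Mga RNA was 1.25 ± 0.0474 in wild type and 1.24 ± 0.0846 in Ppp6r3 cKO (SD, n = 3 each).

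E2f6 encodes the E2F protein that represses without binding retinoblastoma proteins (chromosome 12, 16810963 to 16839742, plus strand). It read 10.25, 11.4 and 11.3 FPKM in wild type and 12.5, 13.0 and 12.6 FPKM in Ppp6r3 cKO. All Ppp6r3 cKO libraries lay above all wild-type libraries, and E2f6 rose with a log2 fold change of 0.21 (SE 0.0549, adjusted p = 0.0392 in limma). The call was lost without any 1 of the 6 libraries, with adjusted p from 0.0572 without Ppp6r3 cKO replicate 1 to 0.109 without wild-type replicate 1, and with no filter on low values (adjusted p = 0.0948). Tfdp1 encodes the DP partner of E2F proteins (chromosome 8, 13338751 to 13378448, plus strand). It read 44.5, 42.7 and 45.5 FPKM in wild type and 48.4, 46.5 and 44.3 FPKM in Ppp6r3 cKO. The ranges overlapped, with a log2 fold change of 0.07 (95% CI -0.04 to 0.17, limma adjusted p = 0.354). Tfdp1 made up 82.9% of the summed Tfdp1 and Tfdp2 RNA in wild type and 83.8% in Ppp6r3 cKO. A near-identical processed pseudogene, Gm7390, stood at 0.932 FPKM.

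The members' own promoters were searched, on both strands, for the E-box CACGTG, the E2F core TCCCGC and the T-box half-site GGTGTGA, in RefSeq windows of 300 bases (250 before to 50 after the start site, GRCm38.p6). Windows were found for 9 of the 10 members. Among them, 2 held the E-box (Max and Tfdp1), 3 the E2F core (E2f6, Rnf2 and Tfdp1) and none the T-box half-site, beside 11.3%, 38.2% and 4.26% of the 12337 tested genes with a window (8.09%, 22.0% and 4.6% of all 27025 genes with one). The members' share with the E2F core, 33.3%, lay below that of tested genes. The stretches below show the E2F6 and DP1 genes, whose promoters carry the core that the pair itself binds; motifs are in capitals (GCGGGA is TCCCGC on the other strand), 5′ to 3′ along the gene. RefSeq gives Tfdp1 a pair of start sites, and the stretch belongs to the window that holds the E-box.
E2f6, chr12:16810897-16810932, plus strand: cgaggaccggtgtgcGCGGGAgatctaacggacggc
Tfdp1, chr8:13338505-13338693, plus strand: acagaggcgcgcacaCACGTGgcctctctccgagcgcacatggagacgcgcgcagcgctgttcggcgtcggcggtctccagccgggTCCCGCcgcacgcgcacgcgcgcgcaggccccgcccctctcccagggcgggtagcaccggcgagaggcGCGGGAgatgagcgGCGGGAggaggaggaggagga
The E2f6 motif begins 53 bases before its start site. A match is a description of the letters and does not show binding.

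Pcgf6 encodes the PCGF subunit that sets this complex apart from other PRC1 forms (chromosome 19, 47033617 to 47050906, minus strand). It read 11.1, 12.2 and 10.6 FPKM in wild type and 9.71, 11.6 and 10.6 FPKM in Ppp6r3 cKO. Its groups overlapped, with a log2 fold change of -0.09 (95% CI -0.27 to 0.09, limma adjusted p = 0.466). Pcgf6 RNA was 13.7% ± 1.09 of the summed RNA of the 6 PCGF genes in wild type and 12.9% ± 1.06 in Ppp6r3 cKO (SD, n = 3 each). Bmi1 (PCGF4, a subunit of canonical PRC1) was the highest of the family in wild type at 26.1%, then Pcgf2 at 19.1%, Pcgf1 at 17.1%, Pcgf3 at 14.96% and Pcgf5 at 9.14%. None of these 5 passed the test either. The Pcgf6 values were whole fragments with an exon length of 2098 bases, against 5027 in GENCODE M21, so its level relative to other genes depends on the annotation used.

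L3mbtl2 encodes an MBT-domain reader that compacts chromatin (chromosome 15, 81663889 to 81688315, plus strand). It read 9.69, 9.96 and 8.99 FPKM in wild type and 10.7, 10.6 and 9.17 FPKM in Ppp6r3 cKO. The lowest Ppp6r3 cKO library lay inside the wild-type range, and the log2 fold change was 0.08 (limma adjusted p = 0.474). Chadl and the pseudogene Gm18284 overlap its locus on the other strand, at 1.08 and 1.84 FPKM. The library kit keeps the strand, per the labels, but the strand setting of the counting is not given in the sources used here.

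Cbx3 encodes HP1 gamma, which binds methylated H3K9 (chromosome 6, 51470360 to 51483704, plus strand). It read 12.9, 13.9 and 13.4 FPKM in wild type and 14.5, 14.8 and 16.3 FPKM in Ppp6r3 cKO. The groups did not overlap, but the log2 fold change of 0.18 (SE 0.0580) did not pass (limma adjusted p = 0.0721). It passed with voom on the recovered fragments (0.18, adjusted p = 0.0141) and after a correction for GC content and length (0.21, adjusted p = 0.0183). Among the 3 HP1 genes, the share of Cbx3 went from 22.3% ± 0.474 to 25.4% ± 0.812, that of Cbx1 from 40.8% ± 0.826 to 37.2% ± 0.504, and that of Cbx5 from 36.8% ± 0.531 to 37.5% ± 0.448 (SD, n = 3 each). The Cbx3 and Cbx1 shares did not overlap between the groups. In level, the groups did not overlap for 37.0% of all tested genes. The 3 shares have a common sum, so they do not move independently, and their difference was not tested. Cbx1 itself did not pass in limma, though voom called it lower (log2 fold change -0.14, adjusted p = 0.0342). Near-identical copies could take or give Cbx3 reads: 11 other genes, mostly processed pseudogenes, matched its transcripts at 95% identity or more over at least 300 bases, and the highest of them stood at 0.558 FPKM.

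Rnf2 (RING1B) and Ring1 (RING1A) encode the 2 alternative H2A ubiquitin ligases (chromosome 1, 151458004 to 151500955, and chromosome 17, 34020792 to 34024680, both on the minus strand). Rnf2 read 27.5, 23.7 and 26.6 FPKM in wild type and 21.7, 26.4 and 26.0 FPKM in Ppp6r3 cKO. Ring1 read 11.5, 9.91 and 9.77 FPKM in wild type and 11.6, 9.61 and 10.6 FPKM in Ppp6r3 cKO. Trmt1l overlaps Rnf2 on the other strand, at 4.75 FPKM. Neither ligase gene passed (log2 fold changes -0.07 and 0.03, limma adjusted p = 0.619 and 0.834). Rnf2 made up 71.4% ± 1.48 of the pair in wild type and 69.8% ± 4.19 in Ppp6r3 cKO (SD, n = 3 each). Ppp6r3 cKO replicate 1 was the lowest of its group for Rnf2 and the highest for Ring1. Relative to the other 2 Ppp6r3 cKO libraries it lay at -0.27 (log2) for Rnf2, whose transcripts have a GC content of 41.3%, and at 0.20 for Ring1, with 59.2%. After the GC and length correction these deviations were -0.15 and 0.09, and the log2 fold changes of both genes were -0.01.

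Yaf2 encodes an adaptor that takes the same place in PRC1 as its paralog RYBP (chromosome 15, 93284278 to 93336935, minus strand). It read 23.8, 24.6 and 24.2 FPKM in wild type and 27.1, 27.1 and 27.3 FPKM in Ppp6r3 cKO. All Ppp6r3 cKO libraries lay above all wild-type libraries, within a range of 0.0120 on the log2 scale, and Yaf2 rose by 0.17 (SE 0.0368, limma adjusted p = 0.0215). After the GC and length correction the rise was 0.27 (adjusted p = 0.00292). The call was lost without each library other than Ppp6r3 cKO replicate 1, with adjusted p from 0.0569 to 0.0780. Rybp averaged 9.82 ± 0.428 FPKM over wild-type and 10.5 ± 1.15 FPKM over Ppp6r3 cKO libraries (SD, n = 3 per group) and did not pass (log2 fold change 0.10, limma adjusted p = 0.464). The Yaf2 share of the pair was 71.2% ± 1.23 and 72.1% ± 2.20, with overlapping libraries.

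Of 12 other partners of the complex and paralogs of its members, 1 rose, beside 7.67% of all tested genes. None fell in limma (1 at an unadjusted p under 0.05 and 1 with voom, both Cbx1), beside 7.86% of tested genes, and 11 did not pass. After the GC and length correction 2 were called higher. The list's median log2 fold change was -0.02. The one that rose was Ehmt2, the H3K9 methyltransferase G9a, which was found with E2F6 complexes. Its mean was 69.7 ± 0.878 FPKM in wild type against 82.9 ± 3.08 FPKM (SD, n = 3 per group), a log2 fold change of 0.25 (adjusted p = 0.00580 in limma). Its transcripts have a GC content of 59.8%, and its log2 fold change was 0.15 after the GC and length correction, where it still passed. Its partner Ehmt1 had a log2 fold change of -0.04, and the histone deacetylases Hdac1 and Hdac2 had -0.02 and 0.08, none of which passed.

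Of 22 other PRC1 subunits, 4 rose and 1 fell, beside 7.67% of all tested genes that rose and 7.86% that fell. The other 17 missed the threshold. The count of fallers was 3 with voom, after the GC and length correction and without Ppp6r3 cKO replicate 1, and 0 to 3 without 1 library. That of risers was 1 to 2 without 1 library. At an unadjusted p under 0.05, Phc1, Scmh1 and Scml2 were lower. The list's median was 0.07. Among the risers were the Polyhomeotic gene Phc2 (0.33, from 16.6 to 20.9 FPKM) and the chromobox genes Cbx2 (0.26) and Cbx6 (0.18), all subunits of canonical PRC1. Phc1 fell by 0.26, from 21.1 to 17.6 FPKM. Phc2, Cbx2 and Cbx6 have a GC content of 57.2% to 60.3%, and after the GC and length correction they stood at 0.22, 0.20 and 0.09, where Cbx6 no longer passed. The call of Phc2 held without each library in turn. Cbx2 lost it when wild-type replicate 1 or 3 was left out, and likewise for Ppp6r3 cKO replicate 1 or 2. Cbx6 lost it without any 1 library. Phc1 lost it without each library except Ppp6r3 cKO replicate 1.

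Of 11 PRC2 subunits, which place H3K27 methylation, 2 fell, beside 7.86% of all tested genes. None rose in limma (1 at an unadjusted p under 0.05, none with voom), beside 7.67% of tested genes, and 9 did not pass. Limma called 1 subunit higher after the GC and length correction. The 2 that fell were the alternative methyltransferases, Ezh2 (fell by 0.26, from 8.06 to 6.72 FPKM) and Ezh1 (fell by 0.20, from 13.9 to 12.1 FPKM). Each lost its call without 5 of the 6 libraries; it held without Ppp6r3 cKO replicate 2 for Ezh2 and without Ppp6r3 cKO replicate 1 for Ezh1.

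The wider MYC and MAX network was compared because it includes other users of MAX, the partner of MGA. Of 11 genes of the MYC and MAX network, 1 fell, beside 7.86% of all tested genes. None rose in limma (3 at an unadjusted p under 0.05, 2 with voom), beside 7.67% of tested genes, and 10 did not pass. The list's median was 0.000695. The one that fell was Mlxipl (ChREBP), by 0.26, and its call was lost without each library except Ppp6r3 cKO replicate 1. Mlxipl is not among the 9 MAX partners summed below. Mycn averaged 21.4 ± 1.11 FPKM over wild-type and 24.4 ± 1.29 FPKM over Ppp6r3 cKO libraries (SD, n = 3 per group), without overlap, and did not pass (log2 fold change 0.19, limma adjusted p = 0.0596), though voom (adjusted p = 0.0144) and the GC and length correction (adjusted p = 0.0289) called it. Myc was lower in level, at 3.80 and 4.16 FPKM, and did not pass (0.13). Mga made up 9.24% ± 0.216 of the summed RNA of 9 MAX partners in wild type and 8.56% ± 0.568 in Ppp6r3 cKO. The groups did not overlap in this share, and the difference was not tested. In level, the groups did not overlap for 37.0% of all tested genes. The level of Mga itself did not pass, with a log2 fold change of -0.01.

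Among 10 other silencers of germline genes, 3 rose and 1 fell, beside 7.67% of all tested genes that rose and 7.86% that fell. The other 6 silencers missed the threshold, and the list's median was 0.12. Voom called 6 higher, and without 1 library 0 to 2 were called higher. Setdb1, an H3K9 methyltransferase, had a mean of 27.1 ± 0.463 FPKM in wild type against 21.5 ± 0.435 FPKM (SD, n = 3 per group). It fell by 0.33 (SE 0.0389, adjusted p = 0.00183 in limma), the groups did not overlap, and it was called lower without each library in turn. The DNA methyltransferase genes Dnmt3b and Dnmt3a rose by 0.21 and 0.19. Their calls were each lost without 5 of the 6 libraries (held without Ppp6r3 cKO replicate 3 and 1). Dnmt3a no longer passed after the GC and length correction (0.13).

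**Figure D3:**
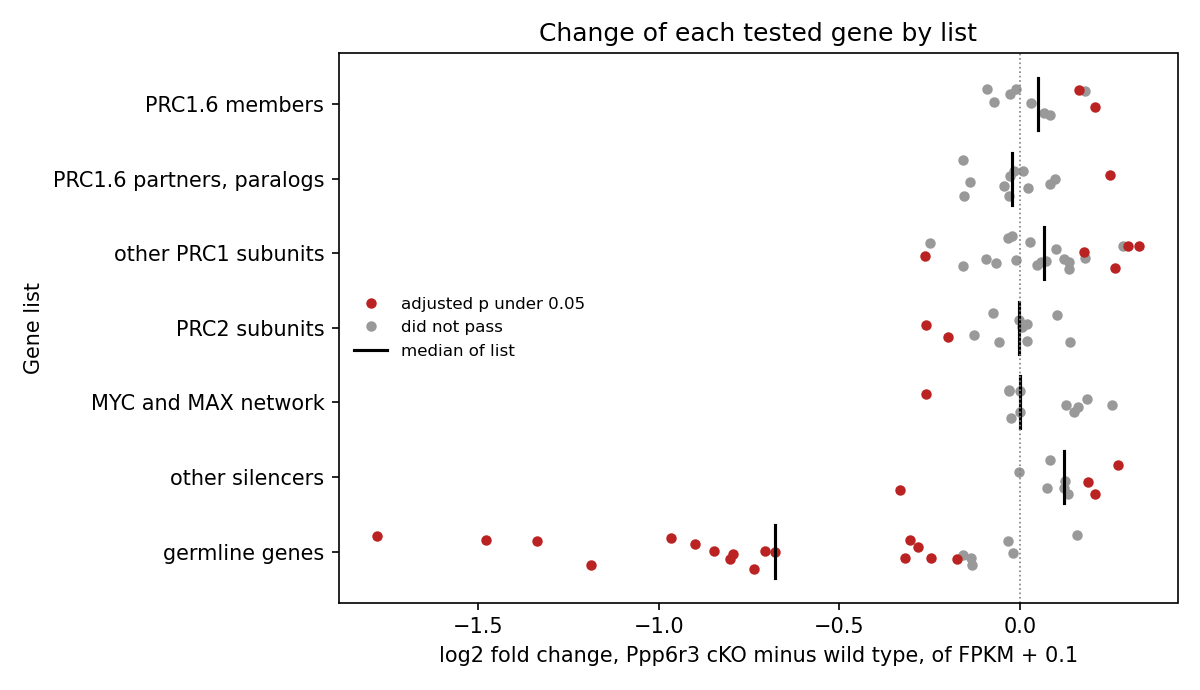
Log2 fold change (Ppp6r3 cKO minus wild type, of FPKM + 0.1) of each tested gene in 7 lists; red points have an adjusted p under 0.05, grey points did not pass, and the black line is the list's median. The members, with a median of 0.05, sit within 0.21 of 0, while the germline genes reach -1.78 with a median of -0.68.

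Germline genes that are described as bound or silenced by the complex in other cells were examined next. Of 24 listed, 23 were tested (Tdrd6 was below the filter): 17 fell, none rose in limma (Tdrd1 at an unadjusted p under 0.05 and with voom) and 6 did not pass, beside 7.86% of all tested genes that fell. The median was -0.68. At an unadjusted p under 0.05, and also with voom, 19 were lower. Of the 17, 14 were called lower under every alternative setting tried, and Mael, Dazl and Stk31 were not. The list was drawn up partly from known targets of the complex, with earlier results of these data known, so its count is not independent evidence of its direction. Meiosin and Stra8, the transcription factors of meiotic entry, stood at 28.5 and 129.9 FPKM in wild type against 8.25 and 51.4 FPKM, log2 fold changes of -1.78 and -1.34. Meiosin carries the name Gm4969 in GENCODE M21. Majin, which ties telomeres to the nuclear envelope, fell by 1.48, the recombination factor Hsf2bp by 1.19 and the axis protein gene Hormad1 by 0.97. The meiotic cohesin genes Stag3 and Smc1b, known E2F6 targets, fell by 0.90 (from 48.9 to 26.2 FPKM) and 0.85 (from 23.7 to 13.1 FPKM). Other classic targets did not pass: the ADP/ATP carrier Slc25a31 averaged 75.4 ± 1.48 FPKM in wild type against 68.9 ± 3.66 FPKM (SD, n = 3 per group), a log2 fold change of -0.13 (adjusted p = 0.0914 in limma). Voom called it lower (adjusted p = 0.0276), and after the GC and length correction it stood at -0.01. The tubulin genes Tuba3a and Tuba3b had -0.03 and -0.02. Tuba3a and Tuba3b were also the highest of the list in wild type. Tdrd1, of the piRNA pathway, lay at 0.16 on the log2 scale of differences (limma adjusted p = 0.0586). Of the 24 listed genes, 10 also stand in the cell type marker lists, so they are not independent of the counts of germ cell markers given last.

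**Figure D4:**
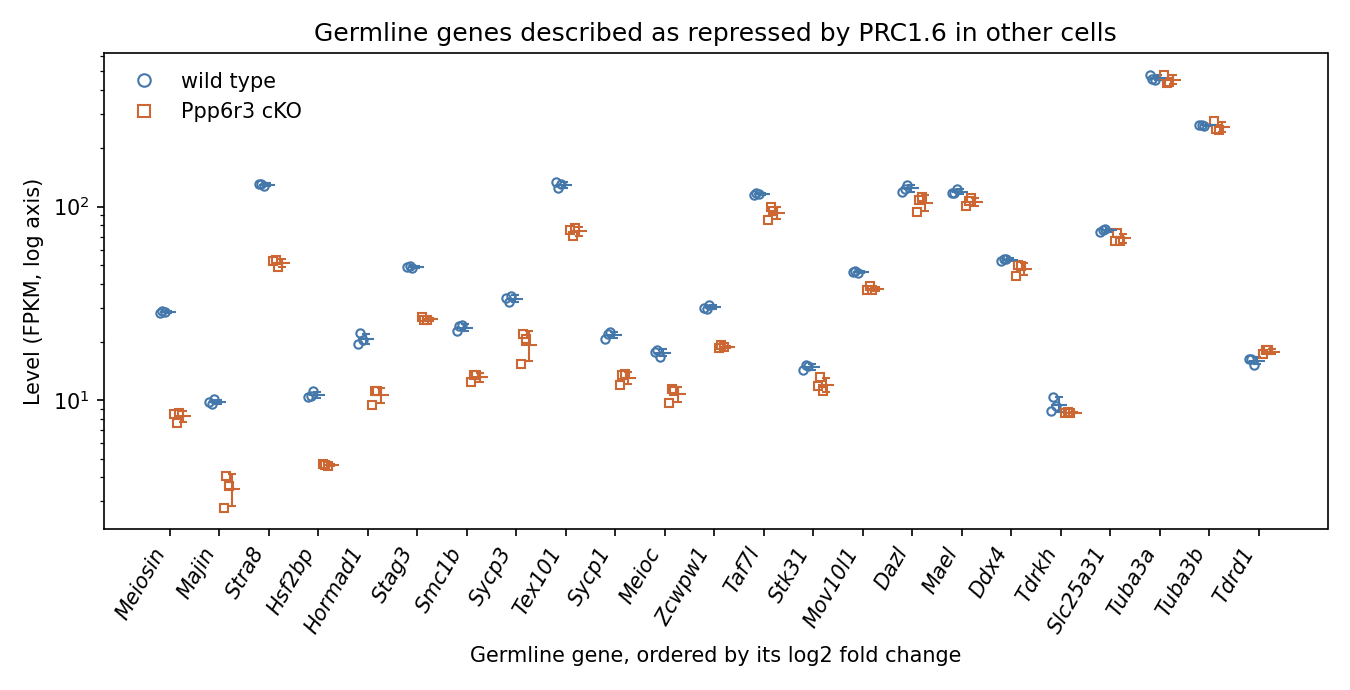
Level (FPKM, log axis) of the 23 tested germline genes in each library, ordered by log2 fold change; circles are the 3 wild-type and squares the 3 Ppp6r3 cKO libraries, with mean ± SD beside them. The groups lie far apart at the left, from Meiosin to Zcwpw1, and come together towards Tuba3a and Tuba3b at the right.

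The promoters of these germline genes were searched for the same motifs, and genes were listed partly as known targets, so their shares are no independent evidence. Of 22 with a RefSeq window, 12 (54.5%) held the E-box and 13 (59.1%) the E2F core, beside 11.3% and 38.2% of tested genes, and 8 (36.4%) held both, beside 5.01%. The T-box half-site stood in 1 (4.55%), that of Sycp3, beside 4.26%. By motif, the median log2 fold change was negative in each subset, with or without the motif, and no difference between these subsets was tested. Of the 12 genes with the E-box 9 fell (median -0.31), and of the 10 without it 7 fell (median -0.69). Of the 13 genes with the E2F core 9 fell (median -0.73), and of the 9 without it 7 fell (median -0.30). Of the 8 with both motifs 6 fell (median -0.77). Stra8 and Tex101 were among 5 genes with neither the E-box nor the E2F core in the window, of which 4 fell. Over all tested genes with a window, the E-box stood in 11.0% of those that fell and 11.3% of those that rose, and the E2F core in 41.5% and 46.9%, beside 11.3% and 38.2% of all tested genes.

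Stretches of 5 promoters are printed to show these motifs in genes that passed the test and in genes that did not. Capitals mark the E-box and the E2F core upstream of the start site, from 15 bases before the first motif to 15 after the last, 5′ to 3′ along the gene (RefSeq, GRCm38.p6). Meiosin, Sycp3 and Smc1b fell, and Ddx4 and Slc25a31 did not pass in limma. Voom called both lower (Ddx4 -0.16, adjusted p = 0.0115).
Meiosin, chr7:19118394-19118543, minus strand: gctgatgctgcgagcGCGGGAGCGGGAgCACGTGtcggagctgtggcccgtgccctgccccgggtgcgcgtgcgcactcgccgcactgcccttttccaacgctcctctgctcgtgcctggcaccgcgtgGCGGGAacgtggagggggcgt
Sycp3, chr10:88459425-88459564, plus strand: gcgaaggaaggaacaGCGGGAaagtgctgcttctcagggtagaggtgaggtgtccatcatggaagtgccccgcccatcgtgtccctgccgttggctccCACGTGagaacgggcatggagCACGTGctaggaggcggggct
Smc1b, chr15:85131984-85132019, minus strand: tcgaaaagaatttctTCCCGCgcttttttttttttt
Ddx4, chr13:112652319-112652461, minus strand: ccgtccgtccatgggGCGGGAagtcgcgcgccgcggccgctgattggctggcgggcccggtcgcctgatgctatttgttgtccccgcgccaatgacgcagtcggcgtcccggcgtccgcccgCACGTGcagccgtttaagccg
Slc25a31, chr3:40708763-40708798, plus strand: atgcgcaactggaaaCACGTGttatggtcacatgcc
The E-box of Slc25a31 begins 93 bases before the start site, and its E2F core lies outside the stretch printed. The printed set was chosen after the matches were seen.

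Markers of the testis cell types moved between the groups, which bears on all values of whole tissue. Their counts stand beside 7.67% of all tested genes that rose and 7.86% that fell. Of 12 meiotic germ cell markers 12 fell, and their summed level went from 338 to 343 FPKM in wild-type libraries to 181 to 193 FPKM in Ppp6r3 cKO. Of 12 tested markers of undifferentiated spermatogonia 4 rose and none fell (none at an unadjusted p under 0.05 or with voom), and the sum went from 110 to 118 to 135 to 143 FPKM. Of 7 markers of differentiating spermatogonia 4 rose and 1 fell, Stra8, and of 6 general germ cell markers 3 fell. Of 7 endothelial markers 5 rose (sum 35.5 to 39.8 against 56.2 to 60.1 FPKM), of 7 macrophage markers 4 (109 to 114 against 146 to 157 FPKM) and of 5 interstitial fibroblast markers 4 (288 to 292 against 350 to 364 FPKM). Of 5 erythroid markers 3 fell (320 to 355 against 203 to 223 FPKM). Of 10 Sertoli markers 2 rose and 1 fell, of 6 Leydig markers 1 rose, and of 5 peritubular myoid markers 2 fell. No marker was at 0 in all libraries. The part of these cell types in the rises of E2f6 and Yaf2, and in the levels of the other members, was not tested.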

How the data were processed

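The authors aligned paired-end reads to mm10 with HISAT2 2.0.5, per the series' design text; DESeq2 is also named in the submitters' processing notes. The deposited values are FPKM, scaled by the authors; the counting tool, strand setting and annotation are not given in the sources used here. Values times exon length (GENCODE M21, GRCm38) were whole multiples of 1 step per library within 0.01 for 31625 of 32589 genes above 0 (97.0%), and with another length for 964, which gave the depth as an inference.

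Genes with at least 10 such fragments in at least 3 libraries were tested: limma 3.58.1 (R 4.3.3) on log2(FPKM + 0.1), trend and robust variance, 2-sided, Benjamini-Hochberg over all genes, threshold 0.05. Fold changes on that scale understate low genes. The code was tested on simulated data. GC and length were corrected per library with natural splines (5 degrees of freedom).

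Members, the 7 pathway and 11 marker lists and the motifs were chosen with earlier results of these data known. Named genes were all members, Ppp6r3, up to 5 passing genes of each list, PCGF genes, 4 paralogs, Myc, Mycn and 5 germline genes. Others (Sycp3, Ddx4, Mael, Dazl, Stk31, Scmh1, Scml2, Trmt1l, Gm7390, Tuba3a, Tuba3b, Tdrd1, Tdrd6, Zcwpw1, Tex101, Ehmt1, Hdac1, Hdac2, and the overlapping Chadl and Gm18284) were named after their values were seen. The deposited table names genes by Ensembl identifier, and symbols came from GENCODE M21, where 54495 of 54532 matched. Some results are not reported here. Tables were built in Python 3.11.15 (pandas 2.3.3, numpy 2.4.6).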

Additional observations from a re-analysis of the deposited data

How the results depend on the processing

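Of 18 alternatives, none reversed a called gene among the 58 checked. Those that change only the threshold, the filter, the block or the variance keep the log2 fold change, so no reversal could arise there. Of 1044 combinations of gene and alternative, 110 lost a call and 13 gained one. In all settings, 18 of the 58 genes passed. The 2 members that passed became 1 with no filter on low values (Yaf2) and 0 at an adjusted p under 0.01, and 0 to 1 without 1 library. Over all genes 2743 passed, 1355 higher and 1388 lower. With no filter 1508 passed (740 and 768), at the threshold of 0.01 889 passed (418 and 471), and voom called 2057 higher. Without 1 library 1242 to 2396 passed, 600 to 1120 higher and 642 to 1276 lower: 1625, 1242 and 1332 without wild-type replicate 1, 2 and 3, and 899 higher without Ppp6r3 cKO replicate 2. The fall of germline genes was called for 14 to 17 genes without 1 library. One germline gene, Tdrd1, was called higher with voom, after the GC and length correction and without Ppp6r3 cKO replicate 1 (0 to 1 without 1 library). Fewer calls follow by construction from a stricter threshold. For the other settings, those without 1 library among them, the cause was not tested. The sign of the uncalled Mga, Max, Pcgf6, Rnf2 and Ring1 changed in some settings. Voom used median-ratio factors in place of the planned TMM. Between libraries of the 2 groups with the same replicate number, the correlation of deviations was 0.0529, -0.0190 and 0.05. For the other combinations it ran from -0.0641 to 0.0244. With 3 libraries a group, these values cannot settle whether the replicate numbers pair the libraries. With the replicate block 2197 genes and the same number of members, 2, passed, while Cbx2 (adjusted p = 0.0582), Cbx6, Dnmt3a and Dnmt3b no longer did. Depth limits Pcgf6 most among the members, with 334 to 425 fragments per library.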
